A study of Mus musculus with 2 samples.

Results

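The calcineurin and NFAT genes were described across a deposited table of open chromatin regions (peaks) in mouse cardiac fibroblasts. The members were 9 genes, namely Nfatc1, Nfatc2, Nfatc3, Nfatc4, Ppp3ca, Ppp3cb, Ppp3r1, Rcan1 and Rcan2, and their peaks were the rows whose gene symbol in the table is one of these names. The rule found 59 of the 63316 peaks, and the 9 genes were among 16934 genes with at least 1 assigned peak. Ppp3ca had 13 peaks, Rcan2 12, Nfatc2 and Rcan1 9 each, Nfatc1 8, Nfatc3 and Ppp3r1 3 each, and Nfatc4 and Ppp3cb 1 each.

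Chromatin accessibility was profiled by ATAC-seq, an assay in which the Tn5 transposase cuts and tags open DNA, so that read density over a region reflects how open it is. Per the labels and the study's legend, both libraries came from primary murine cardiac fibroblasts that received TGF-β at 5 ng/ml for 24 h. One group had been transfected with scrambled siRNA (SCR, titled NC in the labels) and the other with siRNA against Piezo2 (siPiezo2), which encodes a mechanically gated cation channel. The comparison asks how Piezo2 knockdown alters accessibility in TGF-β-treated fibroblasts. There was 1 library per condition, and no sample without TGF-β was analysed here, so no difference has a replicate check and no condition was tested. The methods give a C57BL/6 J background for the study's mouse strains, and the age and number of mice behind these libraries were not given in the sources used here. The design text of the series names a Tet3 knockout by Cre in place of the siRNA, and in the methods the starting material is minced tissue and the kit is not the one in the labels. These conflicts were not settled. The siRNA acts on RNA, so accessibility does not check the knockdown.

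Calcineurin is a phosphatase that calcium-bound calmodulin switches on. It consists of a catalytic subunit, encoded by Ppp3ca or Ppp3cb, and a calcium-binding regulatory subunit, encoded by Ppp3r1. It removes phosphates from the NFAT transcription factors, which then enter the nucleus, and Rcan proteins bind calcineurin and restrain it. In the heart the pathway is best known for hypertrophic growth of cardiomyocytes, and in fibroblasts for responses to calcium-mobilizing and pro-fibrotic stimuli. Rcan1 is transcribed from a distal promoter and from an internal one, and the internal promoter is a known target of NFAT itself.

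The promoters of the regulators are shown because the Rcan2 peak was the only one past 1.5-fold among member peaks that the annotation classes as promoter, and Rcan1 has one promoter of each kind. The sequences are the 250 bases before each start site, from RefSeq on GRCm38.p6, printed 5′ to 3′ on the gene's strand, with the NFAT core letters TGGAAA or their reverse complement TTTCCA in capitals. They lie at chr16:92400079-92400328 (minus strand), chr16:92466170-92466419 (minus strand) and chr17:43801102-43801351 (plus strand). Peaks of the table are on another build, GRCm39, and were joined to these promoters by transcript, with no conversion of coordinates.
Rcan1 internal promoter: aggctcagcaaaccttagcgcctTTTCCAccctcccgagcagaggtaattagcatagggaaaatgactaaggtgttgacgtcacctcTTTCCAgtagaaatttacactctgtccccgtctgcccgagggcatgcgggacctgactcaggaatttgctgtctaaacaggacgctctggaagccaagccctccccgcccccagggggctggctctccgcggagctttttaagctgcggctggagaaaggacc
Rcan1 distal promoter: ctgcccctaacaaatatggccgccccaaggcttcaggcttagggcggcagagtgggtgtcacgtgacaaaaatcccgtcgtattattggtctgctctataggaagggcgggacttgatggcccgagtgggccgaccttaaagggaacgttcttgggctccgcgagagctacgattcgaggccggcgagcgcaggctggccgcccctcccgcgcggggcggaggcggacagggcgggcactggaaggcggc
Rcan2 promoter: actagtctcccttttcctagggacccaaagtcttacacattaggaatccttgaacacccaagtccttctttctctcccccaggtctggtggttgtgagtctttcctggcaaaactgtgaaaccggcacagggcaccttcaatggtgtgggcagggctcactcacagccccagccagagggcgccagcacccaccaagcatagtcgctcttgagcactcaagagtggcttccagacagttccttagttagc

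Motifs were searched on both strands in windows of 300 bases, from 250 before to 50 after the start, for 12 promoters of 7 members. The Rcan1 internal promoter held 2 NFAT cores, whose first bases lay 227 and 163 bases before the start, 1 AP-1 motif (TGANTCA) and 1 CRE (TGACGTCA). Among all 32851 promoters of this length, 21.4% held an NFAT core and 3.03% held 2 or more. The Rcan1 distal promoter and the Rcan2 promoter shown held no NFAT core, and of the other member promoters 1 of 2 at Nfatc2 and the one at Nfatc4 held 1 core each. An AP-1 motif was present in 2 of the 12 member promoters and in 7.81% of all promoters, a CRE in 1 and in 1.79%, and the TEAD letters GGAATG in 0 and in 14.7%. No overlap between different motifs was removed, and a match of letters is not evidence of binding.

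Of the windows over all peaks, 4615335 reads were recovered in SCR and 2754046 in siPiezo2, a ratio of 0.597, with medians of 58 and 36 reads per window of 2000 bp. The member windows held 24 to 218 reads in SCR and 19 to 102 in siPiezo2. Fibroblast markers had an assigned peak for 6 of 8 genes, with none for Lum or Thy1, and together had 955 in SCR and 883 in siPiezo2 as summed read density. Of the markers of other cells, 3 of 7 cardiomyocyte genes had a peak (146 in SCR and 152 in siPiezo2, with none at Myh6, Tnni3, Ttn or Nppa), as did 4 of 5 endothelial genes (219 and 254), 2 of 5 macrophage genes (133 and 112) and 4 of 5 mural genes (450 and 365). The part of cell composition and of depth in the values below was not tested. Fewer open cells and less accessibility per cell cannot be told apart in bulk libraries.

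The density of a peak is the authors' normalized read density over its window, and each ratio below is log2((siPiezo2 + 1)/(SCR + 1)). The 59 member peaks had a median log2 ratio of -0.03, with quartiles of -0.31 and 0.15, and 34 of them (57.6%) lay below 0. Over all peaks the median was -0.13 and 63.7% lay below 0. In the member peaks the ratio spanned -1.04 to 1.20. Below 0.66 of SCR lay 5 member peaks (8.47%), against 13.5% of all peaks, and above 1.5 of SCR lay 3 (5.08%), against 3.21% of all peaks. The 5 lower peaks belonged to Nfatc2, Nfatc3, Ppp3r1 and, with 2, Rcan2. The 3 higher peaks were all at Rcan2.

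**Figure D1:**
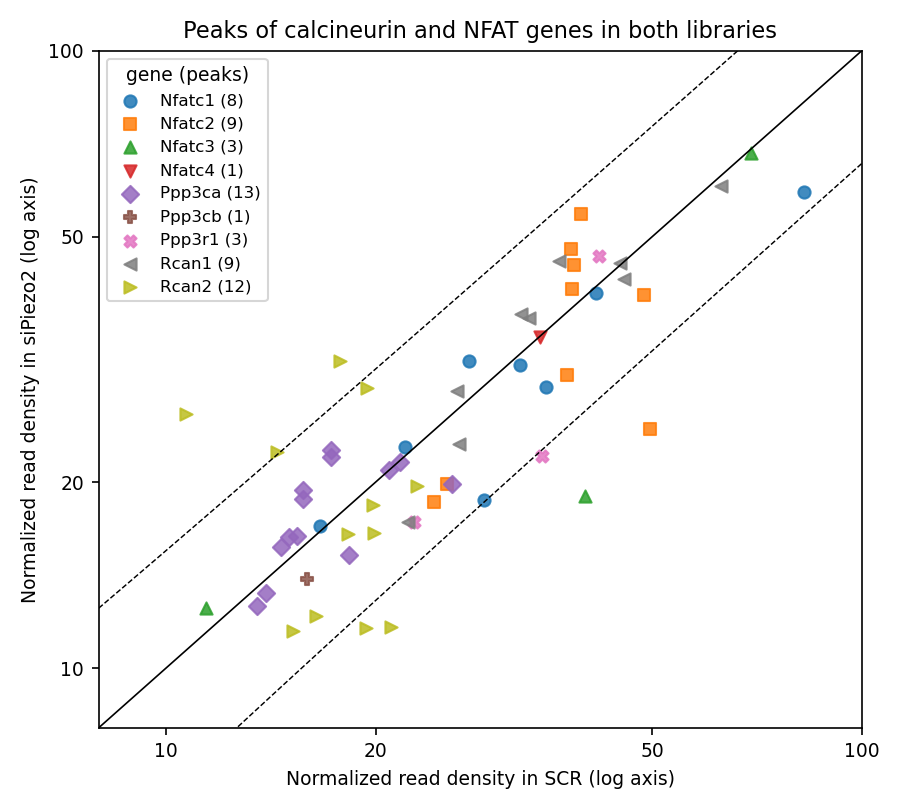
Each point is 1 of the 59 member peaks, with its normalized read density in SCR on the x axis and in siPiezo2 on the y axis, both logarithmic; the solid line marks equal densities and the dashed lines 0.66 and 1.5 of SCR. Most points lie between the dashed lines, the 3 points above them are Rcan2 peaks, and Nfatc2 and Nfatc3 have the points farthest below.

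From the recovered reads, 95% exact binomial (Clopper-Pearson) intervals were taken, which cover counting error only. The interval lay below 0 for 5 member peaks, against 11.4% of all peaks, and above 0 for 3, against 3.63% of all peaks. The variance among peaks called in both libraries was 2.08 times that of counting error when estimated from medians and 4.39 times when estimated from means. Calling depends on the ratio, and this variance holds any effect of the knockdown besides noise. How far either moves the estimates was not tested. With intervals widened to the lower estimate, 2 member peaks remained below 0 (3.39%, against 3.53% of all peaks) and 1 above 0 (1.69%, against 1.02% of all peaks). These were the lowest peaks of Nfatc2 and Nfatc3 and the highest of Rcan2. With the higher estimate, an alternative added after seeing the data, 0 member peaks remained below 0 and 0 above, against 0.629% and 0.21% of all peaks.

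The 4 NFAT genes, which encode the transcription factors, had 21 peaks. Pooled, these peaks had 781 in SCR and 704 in siPiezo2 (log2 ratio -0.15, 95% interval -0.26 to -0.04), and 13 of the 21 peaks lay below 0. Beside this, the median gene of the table stood at -0.09, and under 3 other scalings the pooled NFAT value lay between -0.08 and -0.01.

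Nfatc1 had no peak within 1 kb of a start site. Over its 8 peaks the densities summed to 286 in SCR and 249 in siPiezo2 (log2 ratio -0.20, 95% interval -0.38 to -0.02). This was the only member gene whose counting interval did not reach 0. The interval did reach 0 once widened to the observed variance (-0.46 to 0.06). Much of the difference sat in its strongest peak, in intron 6, 57.2 kb from the 5′ end, a peak singled out after its value was seen. That peak had densities of 82.5 in SCR and 59.1 in siPiezo2 (218 and 88 reads, log2 ratio -0.48, 95% interval -0.85 to -0.11). Without it the gene stood at -0.10 (95% interval -0.31 to 0.11). The lowest Nfatc1 ratio was in intron 8, with 28.6 in SCR and 18.7 in siPiezo2 (log2 ratio -0.59). With the pseudocount of 1 this is just inside the 0.66 line. The highest was in intron 6, with 27.2 in SCR and 31.4 in siPiezo2 (log2 ratio 0.20). For 7 of its 8 peaks the nearest start site in the table was that of another gene.

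Nfatc2 had lower and higher peaks along its length that offset each other. Over its 9 peaks the densities summed to 340 in SCR and 321 in siPiezo2 (log2 ratio -0.08, 95% interval -0.25 to 0.08). The promoter peak, at chr2:168443629-168444040, had 38.4 in SCR and 41.1 in siPiezo2 (log2 ratio 0.10, 95% interval -0.38 to 0.57). In intron 3, the peak at chr2:168389997-168390390 had 49.6 in SCR and 24.4 in siPiezo2, from 123 and 38 reads (log2 ratio -0.998, 95% interval -1.56 to -0.46). Its neighbour at chr2:168391290-168391680, whose window overlaps it, had 37.7 and 29.9 (log2 ratio -0.33), a peak named after its value was seen. The 3′ UTR peak at chr2:168360322-168360677 went the other way, with 39.4 in SCR and 54.4 in siPiezo2 (log2 ratio 0.46, 95% interval 0.02 to 0.89). By the sign of the ratio, the peaks 75.8, 76.5 and 83.1 kb from the gene's 5′ end were higher in siPiezo2. Those 23.4, 52.1, 53.4, 87.3 and 109.7 kb from it were lower. Of the 9 intervals, 1 lay below 0 and 1 above. Among both the higher and the lower peaks neighbouring windows overlap and so share reads. No grouping along the gene is read from these signs.

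Nfatc3 combined an even promoter with one lower intronic peak. The promoter peak at chr8:106785631-106786245 had 69.4 in SCR and 68.3 in siPiezo2 (log2 ratio -0.02, 95% interval -0.39 to 0.33). The intron 1 peak at chr8:106803336-106803571 was weak, with 11.4 and 12.5 (log2 ratio 0.12). The intron 9 peak at chr8:106853638-106854008 had 40.0 in SCR and 19.0 in siPiezo2, from 97 and 30 reads, the lowest ratio of any member peak (log2 ratio -1.04, 95% interval -1.68 to -0.43). The nearest start site to it, 6937 bp away, belongs to another gene. Summed, Nfatc3 had 121 in SCR and 99.8 in siPiezo2 (log2 ratio -0.27, 95% interval -0.56 to 0.01), the lowest value among the 9 genes.

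Nfatc4 had 1 peak, a promoter peak at chr14:56059970-56060246, with 34.5 in SCR and 34.3 in siPiezo2 (log2 ratio -0.01, 95% interval -0.53 to 0.50). The 2 densities were nearly the same, but from 85 and 54 reads a change of up to about that interval was not detectable.

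The calcineurin subunits had 17 peaks, with a pooled density of 340 in SCR and 334 in siPiezo2 (log2 ratio -0.03, 95% interval -0.19 to 0.13, and 0.06 to 0.19 under 3 other scalings). Of these peaks, 9 lay below 0 and 8 above. Of the 17, 0 were above 1.5 of SCR and 1 was below 0.66, lines that 3.21% and 13.5% of all peaks passed.

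Ppp3ca, which encodes a catalytic subunit, had the most peaks of any member, all in introns, and none at its promoter. They were weak and even: densities ran from 13.5 to 25.8 in SCR and from 12.6 to 22.6 in siPiezo2, and none of the 13 reached the median mean density of all peaks, 23.3. The lowest ratio was at chr3:136428310-136428621 in intron 1, with 25.8 in SCR and 19.9 in siPiezo2 (log2 ratio -0.36, 95% interval -1.02 to 0.28). The highest was at chr3:136471267-136471519, also in intron 1, with 17.2 and 22.6 (log2 ratio 0.37, 95% interval -0.31 to 1.05). Summed, the gene had 225 in SCR and 235 in siPiezo2 (log2 ratio 0.06, 95% interval -0.14 to 0.25). Every Ppp3ca interval spanned 0 under the deposited scaling, and 6 of its peaks lay below 0 and 7 above. The split was 2 and 11 under the median of ratios and at equal totals of reads, where the gene's interval lay above 0 (0.0036 to 0.39 and 0.12 to 0.51).

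Ppp3cb, the other catalytic subunit, had a single weak peak in intron 13 at chr14:20553175-20553392, with 15.9 in SCR and 13.9 in siPiezo2 (log2 ratio -0.18, 95% interval -1.005 to 0.61). That interval leaves a change of 1.5-fold in either direction not detectable at 36 and 23 reads. Ppp3r1, the regulatory subunit, had values of opposite sign at its promoter and in intron 1. Its promoter peak at chr11:17108989-17109489 had 41.9 in SCR and 46.6 in siPiezo2 (log2 ratio 0.15, 95% interval -0.31 to 0.59). The lower intron 1 peak, at chr11:17126629-17127012, had 34.7 and 22.0, from 84 and 35 reads (log2 ratio -0.63, 95% interval -1.24 to -0.05). Once widened to the observed variance, its interval reached 0 (-1.51 to 0.21). The pair of intron 1 peaks pooled to a log2 ratio of -0.54 (95% counting interval -0.99 to -0.10), and the promoter interval overlapped it. The whole gene had 99.4 in SCR and 85.8 in siPiezo2 (log2 ratio -0.21, 95% interval -0.52 to 0.10).

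**Figure D2:**
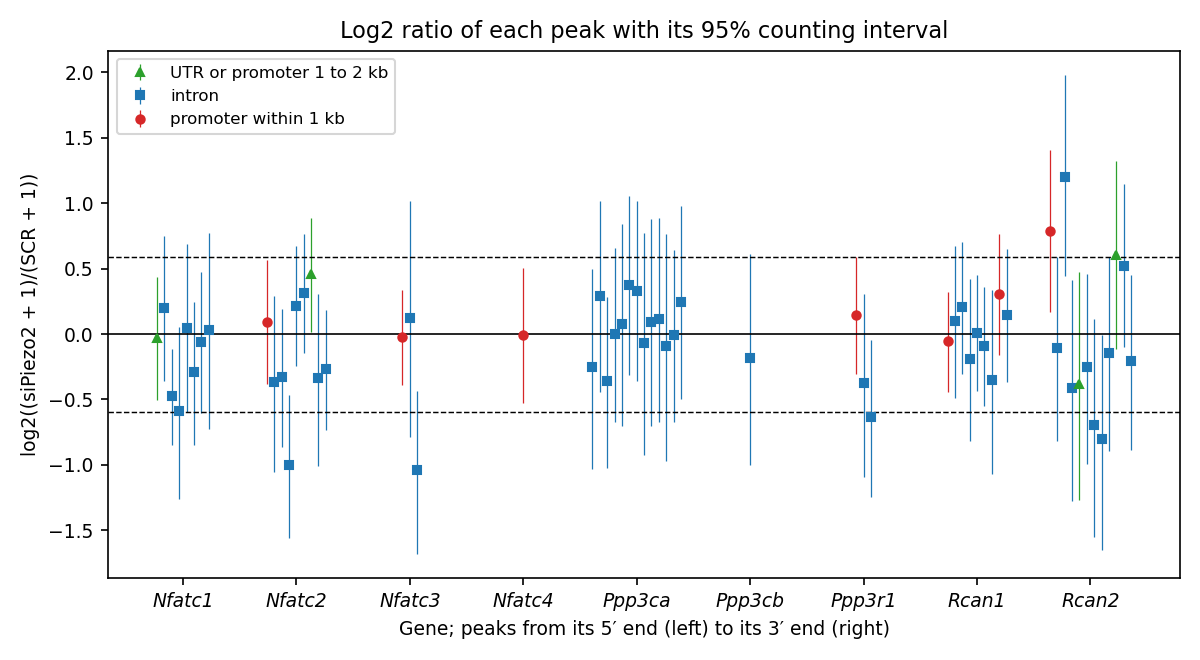
Each point is the log2 ratio of 1 member peak, ordered within its gene from the 5′ to the 3′ end, with its 95% counting interval as a bar; dashed lines mark 0.66 and 1.5 of SCR. Intervals span 0 for all but 8 of the 59 peaks, Ppp3ca runs from -0.36 to 0.37, and Rcan2 runs from -0.80 to 1.20.

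The regulators Rcan1 and Rcan2 had 21 peaks, with a pooled density of 546 in SCR and 563 in siPiezo2 (log2 ratio 0.04, 95% interval -0.08 to 0.17, and 0.13 to 0.18 under 3 other scalings). They differed from each other in strength. Rcan1 had 8 of its 9 peaks above the median density of all peaks, while Rcan2 had 2 of 12. Past 1.5-fold lay 0 of the 9 Rcan1 peaks, and 2 Rcan2 peaks downward and 3 upward, against 13.5% and 3.21% of all peaks. Of these 5 Rcan2 peaks, 3 had counting intervals off 0 and 1 kept it off 0 after widening, and the difference between both genes in this respect was not tested.

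At Rcan1 the internal promoter, whose sequence with 2 NFAT cores is shown above, lay under the peak at chr16:92196946-92197382. It had 36.7 in SCR and 45.6 in siPiezo2, from 92 and 71 reads (log2 ratio 0.31, 95% interval -0.16 to 0.77), the highest ratio of the gene. The distal promoter peak at chr16:92262997-92263429 was the strongest Rcan1 peak, with 62.8 and 60.4 (log2 ratio -0.06, 95% interval -0.44 to 0.32). The intervals of both promoters spanned 0 and overlapped, so no difference between them was detectable at this depth. The lowest Rcan1 ratio was in intron 1 at chr16:92204725-92205078, with 22.3 in SCR and 17.2 in siPiezo2 (log2 ratio -0.35, 95% interval -1.07 to 0.34). The whole gene had 331 in SCR and 337 in siPiezo2 (log2 ratio 0.03, 95% interval -0.13 to 0.19). Its peaks in 2 pairs had overlapping windows, and with 1 window of each pair the log2 ratio was -0.02.

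Peaks of Rcan2 spanned the widest range of ratios among the 9 genes, from -0.80 to 1.20, on 24 to 54 reads per window in SCR and 19 to 51 in siPiezo2. Its promoter peak at chr17:44112081-44112305, over the Rcan2 sequence shown above, had 17.8 in SCR and 31.4 in siPiezo2, from 42 and 51 reads (log2 ratio 0.79, 95% interval 0.17 to 1.41). The library with fewer reads overall had more reads there, although the authors' peak caller named this peak in SCR only. In intron 2, the peak at chr17:44166053-44166349 had 10.7 in SCR and 25.8 in siPiezo2, from 24 and 43 reads (log2 ratio 1.20, 95% interval 0.44 to 1.98), and it was the only member peak called in siPiezo2 alone. The 5′ UTR peak at chr17:44337503-44337703, which lies 2 bp from another Rcan2 start site, had 14.4 and 22.4 (log2 ratio 0.60, 95% interval -0.11 to 1.33).

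Both Rcan2 peaks below 0.66 of SCR were in intron 2, at chr17:44301872-44302091 with 19.4 in SCR and 11.6 in siPiezo2 (log2 ratio -0.69, 95% interval -1.55 to 0.11), and at chr17:44318331-44318692 with 21.0 and 11.7 (log2 ratio -0.80, 95% interval -1.65 to -0.01). Of the 12 Rcan2 peaks 8 had ratios below 0, and 6 did at equal totals of reads. The 3 peaks past 1.5-fold upward lay at the promoter and 54.0 and 225.4 kb from the 5′ end. Summed over the gene, Rcan2 had 215 in SCR and 226 in siPiezo2 (log2 ratio 0.07, 95% interval -0.13 to 0.27) under the deposited scaling. The value was higher under the other scalings, at 0.21 (0.0093 to 0.40) under the median of ratios, 0.16 (-0.04 to 0.35) with densities at the same total and 0.32 (0.12 to 0.52) at equal totals of reads. Over its 2 peaks with a mean density above the median of all peaks, 23.3, it was 0.67 (0.24 to 1.10). Both had SCR densities below 23.3 (17.8 and 19.5) and passed only through siPiezo2 (31.4 and 28.4). The filter thus favoured a higher value, and nothing is read from it. Outside the promoter the 11 other peaks pooled to -0.02 (95% interval -0.23 to 0.19).

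**Figure D3:**
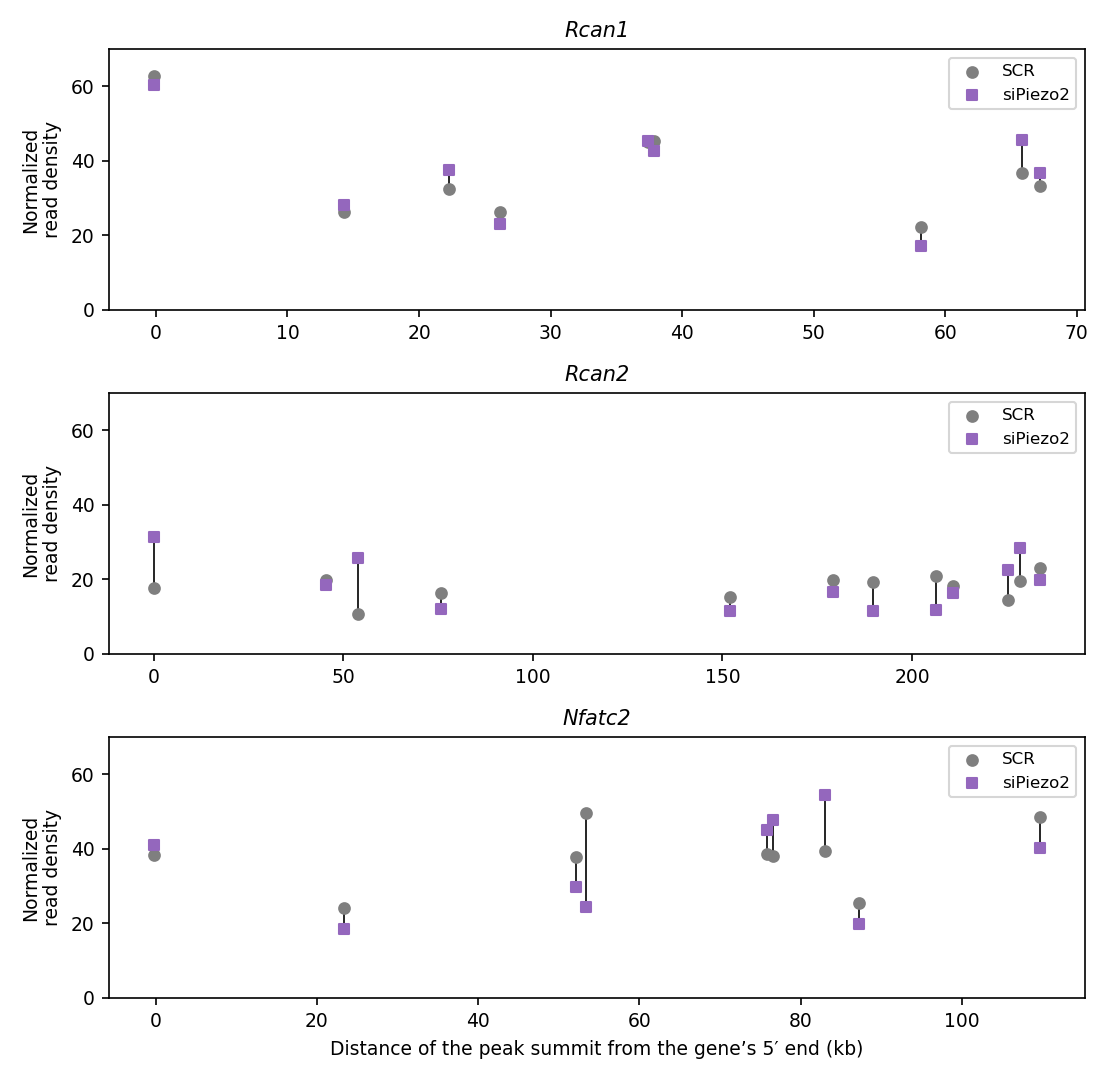
Normalized read density of each peak in SCR (circles) and siPiezo2 (squares) against the distance of its summit from the gene's 5′ end in kb, for Rcan1, Rcan2 and Nfatc2, on one density scale; a line joins the pair of values of a peak. Rcan1 pairs lie close together along the gene, Rcan2 has weak peaks with higher siPiezo2 values at the promoter and 54.0 kb, and Nfatc2 has its widest gap 53.4 kb from the 5′ end.

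Set side by side, 6 of the 9 genes had summed densities below SCR and 3 above, and their median log2 ratio was -0.08, where the median of all genes was -0.09. None of the 9 passed 0.66 or 1.5 of SCR, lines that 6.21% and 1.54% of all genes passed. The counting interval lay below 0 for 1 member gene and above 0 for 0, against 15.2% and 4.37% of all genes. In order from the lowest, the genes were Nfatc3, Ppp3r1, Nfatc1, Ppp3cb, Nfatc2, Nfatc4, Rcan1, Ppp3ca and Rcan2, and the intervals of all neighbours in this order overlapped. Nfatc3 stood at percentile 26.8 among all genes and Rcan2 at 71.3, so every member lay in the middle of the distribution.

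The direction of Nfatc2, Nfatc4 and Ppp3cb depended on the scaling, and each moved above 0 under at least 1 alternative. The authors' fit put the median gene at -0.09, while scaling by the median of ratios put it at 0.04 and equal totals of recovered reads at 0.03, and under each of these 4 of the 9 members lay below 0 in place of 6. Ppp3ca, Ppp3cb and Rcan2, all with weak peaks, moved most, to 0.32, 0.09 and 0.32 at equal totals of reads. Nfatc1, Nfatc3 and Ppp3r1 were below 0 under each scaling tried. Among single peaks the Rcan2 promoter ranged from 0.79 to 0.99, the Rcan2 intron 2 peak from 1.20 to 1.51, the Nfatc2 intron 3 peak from -0.998 to -0.86 and the Nfatc3 intron 9 peak from -1.04 to -0.91. The Ppp3r1 intron 1 peak (-0.50) and both lower Rcan2 peaks (-0.44 and -0.56) did not pass 0.66 of SCR at equal totals of reads.

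**Figure D4:**
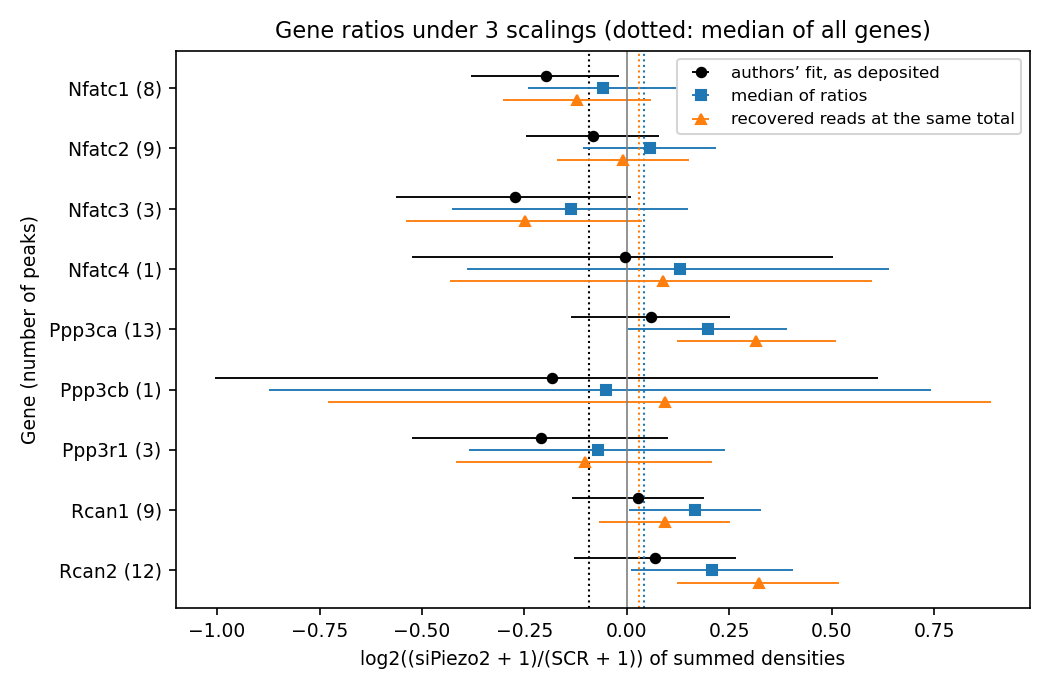
Log2 ratio of summed densities for each gene, with 95% counting intervals, under the authors' fit (circles), the median of ratios (squares) and equal totals of recovered reads (triangles); dotted lines mark the median of all genes under each. Most intervals include 0 and the dotted line of the same colour, and Ppp3ca, Ppp3cb and Rcan2 shift farthest to the right under equal read totals.

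Peak strength can be compared between genes since all windows are 2000 bp. By the median over its peaks of the mean density of both libraries, Nfatc2 came first (39.7), then Rcan1 (35.0), Nfatc4 (34.4), Nfatc1 (30.5), Nfatc3 (29.5), Ppp3r1 (28.4), Rcan2 (18.2), Ppp3ca (17.3) and Ppp3cb (14.9). The genes thus formed a stronger set of NFAT genes, Rcan1 and Ppp3r1 and a weaker set of both catalytic subunits and Rcan2, though single peaks of every gene with several peaks in the stronger set reached down into the weaker range. All members together had a median of 22.6, close to the 23.3 of all peaks.

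By the annotation's classes, 48 member peaks were intronic, 7 were promoter within 1 kb (in 6 genes), 1 was promoter from 1 to 2 kb, 2 were 5′ UTR and 1 was 3′ UTR. By distance alone, 10 peaks in 7 genes lay within 1 kb of their own gene's start sites, the other 3 being both 5′ UTR peaks of Rcan2 and the Ppp3cb peak. The median of the 7 promoter peaks was 0.10 on the log2 scale, that of all 9251 promoter peaks was -0.03, and the 7 pooled to 0.12 (95% interval -0.05 to 0.28), with 0.26 under the median of ratios, 0.21 with densities at the same total and 0.14 at equal totals of reads. The 19 first-intron peaks had a median of -0.00027 against -0.15 for their class, and the 29 later-intron peaks -0.14 against -0.17. Member peaks outside promoters pooled to -0.10 (95% interval -0.18 to -0.02), but to 0.04 under the median of ratios and 0.05 at equal totals of reads. By calling, 19 member peaks were called in both libraries, 39 in SCR only and 1 in siPiezo2 only. Calling depends on the densities themselves, so a split by calling sorts peaks by their ratio: of all peaks called in SCR only 18.3% were below 0.66 of SCR, and of those called in siPiezo2 only 49.8% were above 1.5. No difference is read from the 19.

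The pathway around the members was read from 41 further genes in 6 lists, of which 35 had an assigned peak. None of the 35 passed 0.66 or 1.5 of SCR on summed density. Their median was -0.06, 21 lay below 0, and the counting interval lay below 0 for 6 (17.1%, against 15.2% of all genes) and above 0 for 4 (11.4%, against 4.37% of all genes). With widened intervals 5 lay below and 0 above, against 6.65% and 1.39% of all genes. Under the median of ratios 4 lay below and 8 above, against 6.98% and 11.2%. With densities at the same total these were 4 and 7, against 9.35% and 8.13%. At equal totals of reads they were 2 and 5, against 8.13% and 8.89%. Among the other family members, Rcan3 stood at -0.23 and Nfat5 at -0.02, while Ppp3cc and Ppp3r2 had no assigned peak. The 3 calmodulin genes, whose product activates calcineurin, all lay above 0, where 62.6% of all genes lay below. They ran from 0.05 at Calm2 to 0.33 at Calm3 (95% interval 0.07 to 0.59). With widened intervals and at equal totals of reads the Calm3 interval reached 0. Calcineurin partners ran from -0.44 at Fkbp1a, the binding protein of the inhibitor tacrolimus, to 0.37 at Cib1, a calcineurin-binding protein. NFAT kinases, which return NFAT to the cytoplasm, ran from -0.09 at Dyrk1a to 0.30 at Csnk1a1.

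The genes of calcium supply had the lowest median of the 6 lists under each scaling tried. Of these 12 channel, sensor and receptor genes, 11 were below 0, where 62.6% of all genes were, with a median of -0.26 (10 below 0 and -0.12 under the median of ratios, 8 and -0.11 at equal totals of reads), and a range from -0.52 at Trpc6, with 1 weak peak, to 0.04 at Orai3. The counting interval was below 0 for 5 of them, against 15.2% of all genes. Named after their values were seen, these were Orai2 (-0.44), a store-operated channel, the inositol trisphosphate receptors Itpr1 (-0.15), Itpr2 (-0.28) and Itpr3 (-0.50), and Cacna1c (-0.24), the L-type channel. An interval narrows as reads rise, and Cacna1c held 35 peaks, Itpr1 27 and Itpr2 17, but Itpr3 4 and Orai2 3. The 12 genes held 105 peaks, against 43864 over all 16934 genes. The part of peak number in the count of 5 was not tested. With widened intervals 4 of the 12 stayed below 0, without Orai2, where 6.65% of all genes did. Under the median of ratios and with densities at the same total 3 did (Itpr2, Itpr3 and Cacna1c), against 6.98% and 9.35%, and at equal totals of reads 2 did (Itpr3 and Cacna1c), against 8.13%. Among NFAT's 5 partner factors with a peak, Mef2c had 205 in SCR and 152 in siPiezo2 (log2 ratio -0.43, 95% interval -0.66 to -0.21), and Mef2a had 75.8 and 103 (log2 ratio 0.44, 95% interval 0.13 to 0.75). Gata4 stood at 0.23 (0.05 to 0.40), Mef2d at -0.08 (-0.34 to 0.18) and Fos at -0.0081 (-0.35 to 0.33). With widened intervals only that of Mef2c among the 5 lay off 0, and at equal totals of reads those of Gata4 and Mef2a did, both above. Jun had no assigned peak.

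**Figure D5:**
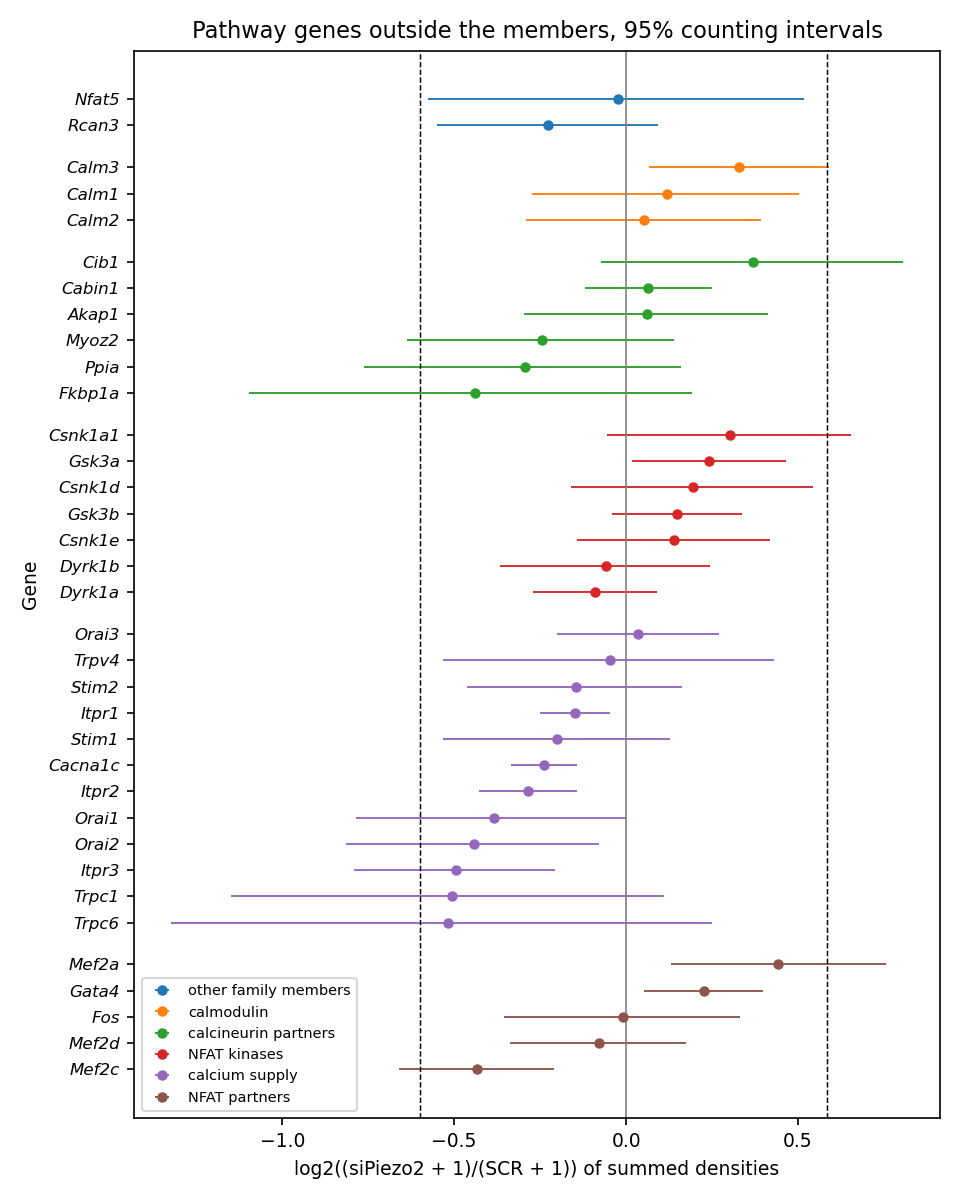
Log2 ratio of summed densities with 95% counting intervals for the 35 pathway genes with a peak, grouped by list; dashed lines mark 0.66 and 1.5 of SCR. No gene lies past a dashed line, 11 of the 12 calcium supply genes are below 0, and Mef2a and Mef2c lie on opposite sides of 0.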

How the data were processed

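ATAC-seq was performed on 2 libraries, 1 per condition, assigned by their labels. The authors trimmed and aligned reads with BWA (0.7.12 in the submitters' processing notes), removed duplicates with Picard and called peaks with MACS2. The deposited signal values are read densities per peak in each library, normalized by the authors in a way that the sources used here do not describe. The notes name mm10, but gene coordinates in the table are those of GRCm39, and peak coordinates are given as in the table. The authors' fold change and p-value columns were not used.

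Densities gave log2 ratios with a pseudocount of 1, per peak and summed per gene. Comparison of both densities recovered a straight line in the log2 ratio against mean log2 density (intercept -0.2482, slope 0.174). Under it, 100% of windows of 2000 bp came out as whole numbers within a relative tolerance of 0.0001, less 1 per window, an offset that the sources do not state. These reads gave 95% Clopper-Pearson intervals, which cover counting error only, since there was 1 library per condition. The reads carried no molecular identifiers. Intervals were widened by 1.44, the square root of 2.08. Recovery was tested on simulated data.

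The members, lists, motifs and rules were chosen with earlier results of these data known. Named were all members, their promoter peaks, their lowest and highest peaks, every peak past 1.5-fold, and the lowest and highest gene of each pathway list, with 1 listed gene not reported here. Alternatives covered pseudocount, scaling, peak strength, calling, overlapping windows, fold and promoter peaks. Promoter sequences came from RefSeq (GRCm38.p6). Computations ran in Python 3.11.15 with scipy 1.17.1, numpy 2.4.6 and pandas 2.3.3.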

Additional observations from a re-analysis of the deposited data

How the results depend on the processing

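With 1 library per condition no result has a replicate check, a median peak rested on 58 and 36 reads, and the deposited scaling decided small ratios. The count of member peaks below 0.66 of SCR (5) became 3 under the median of ratios, 2 at equal totals of recovered reads, 3 of 28 at or above the median density, 0 of 19 called in both libraries, a filter that the ratio itself affects, and 1 of 59 past 2-fold. The count above 1.5 of SCR (3) became 5, 5, 1, 0 and 1 under the same settings. With a pseudocount of 0.1 the lower count was 6 and the higher count 3. Of all peaks, 8.35% were lower and 6.27% higher under the median of ratios, 7.42% and 8.0% at equal totals of reads, 11.5% and 2.91% at or above the median density, 5.36% and 4.41% when called in both, and 2.76% and 0.504% past 2-fold. The pooled log2 ratio over members (-0.06) became 0.081 under the median of ratios, 0.029 with densities at the same total, 0.065 at equal totals of reads and 0.12 over promoter peaks alone. Without Rcan2, left out after seeing its values, it was -0.08. The count of genes with an interval below 0 (1) became 0 under those 3 scalings, with widened intervals, and without the strongest Nfatc1 peak. Over peaks at or above the median density, a setting added once values were seen, it became 2 (Nfatc1 and Nfatc3). This filter uses the mean of both libraries, so a peak can pass through the library where it is high. The Nfatc3 intron 9 peak (40.0 in SCR and 19.0 in siPiezo2) had only its SCR density above the cut of 23.3. The count above 0 (0) became 3 under the median of ratios (Ppp3ca, Rcan1 and Rcan2), 2 at equal totals of reads (Ppp3ca and Rcan2) and 1 at or above the median density (Rcan2). The 2 Rcan2 peaks kept by that filter passed only through siPiezo2, so nothing is read from this last count. Of 65 gene values under alternatives, 58 stayed within the interval of the deposited scaling and 7 did not. Why the results changed with scaling was not tested. No paired analysis was possible because each condition had 1 library.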

Other observations

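Beyond the peaks that the table assigns to a member by symbol, 12 peaks had a member's start site as their nearest one, 11 of them intergenic, and these were chosen after their values were seen. Of the 12, 9 lay below 0, with a median log2 ratio of -0.27, 3 were below 0.66 of SCR and 0 above 1.5. Among all distal intergenic peaks 66.3% lay below 0, the median was -0.18, and 16.6% and 4.02% passed these lines. Nfatc2 held 8 of them. Upstream of Nfatc2, the peak at chr2:168452774-168453240, at -9430 bp from its start site, had 32.2 in SCR and 18.2 in siPiezo2 (log2 ratio -0.79, 95% interval -1.46 to -0.16). Downstream of the gene, the peak at chr2:168307953-168308426 had 59.7 and 42.6 (log2 ratio -0.48, 95% interval -0.92 to -0.05). The intergenic peak nearest to Rcan2, at chr17:44099184-44099467, had 23.4 in SCR and 19.8 in siPiezo2 (log2 ratio -0.23), so it did not share the higher siPiezo2 value of the Rcan2 promoter, though its interval (-0.91 to 0.42) overlapped that of the promoter.

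Single markers diverged within their lists, and all markers with a peak are given. The mural genes stood at -1.16 (Rgs5, 127 in SCR and 56.0 in siPiezo2 over 5 peaks), -0.50 (Notch3), -0.23 (Myh11) and 0.16 (Cspg4). The endothelial genes stood at 0.70 (Cdh5, 47.7 in SCR and 78.0 in siPiezo2 at 1 peak), 0.41 (Emcn), 0.01 (Pecam1) and -0.10 (Kdr). The macrophage genes stood at -0.24 (Ptprc) and -0.25 (Csf1r), and the cardiomyocyte genes at 0.16 (Ryr2), 0.0036 (Tnnt2) and -0.07 (Actn2). Of the fibroblast genes, Col1a1 (-0.44) and Col1a2 (-0.50) had counting intervals below 0, while those of Pdgfra (-0.16), Tcf21 (-0.03), Ddr2 (-0.0027) and Dcn (0.21) spanned 0. Among the markers of other cells, the intervals of Rgs5 (-1.52 to -0.82) and Cdh5 (0.32 to 1.08) lay off 0 and the rest spanned 0.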
